A study of Mus musculus with 6 samples.

Results

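The 9 genes described here encode the enzymes and 1 accessory protein that turn arachidonic acid into prostaglandins, thromboxane and leukotrienes: Ptgs1, Ptgs2, Ptges, Ptgds, Hpgds, Tbxas1, Alox5, Alox5ap and Ltc4s. They were found by their symbols among the 54752 genes of the count tables. RNA came from the whole right hippocampus of adult male wild-type mice of the strain C57BL/6 (C57BL/6J in the methods), with 1 library per mouse. The 3 BCAS mice had bilateral carotid artery stenosis, in which a microcoil is wound around each common carotid artery to lower cerebral blood flow, with the narrower coil on the right. The 3 sham mice had the same surgery without coils. Hippocampi were taken 3 weeks after surgery, and the labels give a time of 14 weeks for every mouse. The design compares BCAS with sham hippocampi, so it asks how chronic hypoperfusion changes transcript levels.

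Arachidonic acid is cut from membrane phospholipids by phospholipases and then enters separate branches. In the cyclooxygenase branch, PTGS1 and PTGS2 (COX-1 and COX-2) make the unstable intermediate prostaglandin H2, and a terminal synthase of each cell turns it into prostaglandin E2, prostaglandin D2 or thromboxane A2. In the lipoxygenase branch, ALOX5 makes leukotriene A4 with the help of the membrane protein ALOX5AP, and LTC4S joins it to glutathione to give leukotriene C4. In the brain, COX-2 is best known from excitatory neurons, where it is an activity-induced gene, and COX-1 from microglia. These are lipid mediators of inflammation, vascular tone, fever and sleep. The counts measure transcripts, and neither enzyme activity nor lipid levels were measured here.

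All 9 genes passed the filter on low counts, and every one of them differed between the groups at an adjusted P under 0.05 in edgeR's quasi-likelihood test. 8 genes rose and 1, Ptgs2, fell. By comparison, 18.0% of the 18617 tested genes rose and 13.2% fell at this threshold, 31.3% in all. 7 of the 9 were up-regulated DEGs, which besides the adjusted P needed a log2 fold change above 1 or below -1. Of all tested genes 8.47% were up-regulated DEGs, 0.999% down-regulated DEGs and 9.46% either. The exceptions among the 9 were Ptges, which rose by less, and Ptgs2, which fell by less. The median log2 fold change of the 9 genes was 1.78, with single genes from -0.89 to 3.04, and that of all tested genes was 0.018. The 3 BCAS mice did not overlap with the 3 sham mice for any of the 9 genes: they were all above the sham mice for 8 genes and all below for 1. Among all tested genes 25.3% were wholly higher and 22.7% wholly lower in the BCAS mice.

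**Figure D1:**
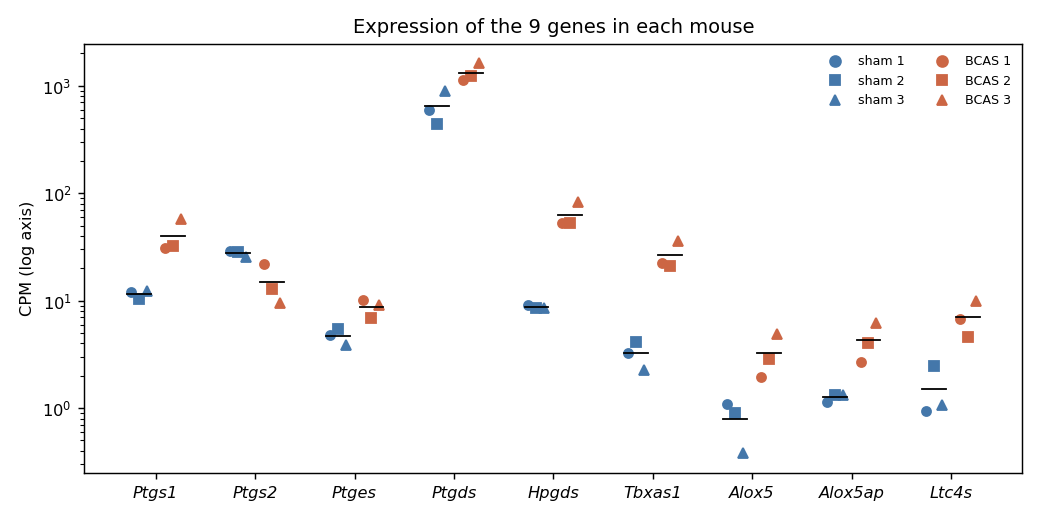
Expression of the 9 genes in CPM (the read count scaled to a common library size, on a log axis), with 1 symbol per mouse and a bar at the mean of the 3 mice of each group. The BCAS symbols lie above the sham symbols for 8 genes and below them for Ptgs2, and BCAS mouse 3 is the highest of the 6 mice for 7 of the 9 genes.

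The sham libraries held 34301711 to 35607098 counts and the BCAS libraries 29652456 to 31892083, so that 3 counts, taken as the limit of detection, equal 0.0875 to 0.0995 CPM. No library of the 9 genes was at this limit, and the lowest count was 13, for Alox5 in sham mouse 3. The counts are of whole hippocampal tissue, in which more cells of a type and more RNA per cell cannot be told apart. The 10 microglial markers (Cx3cr1, P2ry12, Tmem119 and others) rose in BCAS mice without exception, with a median log2 fold change of 2.87. Their summed level was 355 to 379 CPM in sham mice and 2145, 2294 and 3476 CPM in BCAS mice 1 to 3. BCAS mouse 3, the highest mouse for 7 of the 9 genes, was the highest here too. Of 6 markers of border macrophages 4 rose, with a summed level of 8.35 to 11.5 CPM in sham and 19.3 to 25.4 CPM in BCAS mice. These markers move with the 8 genes that rose, and their part in the changes was not tested beyond the levels relative to microglial markers given further on. Of 6 astrocyte markers 5 rose (summed level 4030 to 4247 CPM in sham and 5906 to 5976 CPM in BCAS mice), and of 7 endothelial markers 4 rose (251 to 274 and 337 to 373 CPM). Markers of the choroid plexus, which adjoins the hippocampus, varied widely within both groups. The summed level of 8 of them was 1010, 4171 and 72.4 CPM in sham mice 1 to 3 and 6070, 49.0 and 3298 CPM in BCAS mice 1 to 3. None of these 8 markers passed the test in edgeR (0 at an unadjusted P under 0.05, and 0 in DESeq2 and limma-voom). Their log2 fold changes were all positive, from 0.64 to 1.32 with a median of 1.01, and the standard errors were 0.92 to 1.54. With errors of this size the test cannot show that choroid plexus RNA was equal between the groups.

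Promoter windows from RefSeq, which run from 250 bases before to 50 bases after a gene's start, were at hand for 8 of the 9 genes, all but Alox5ap. The sequence GAGGAAG, the core of the sites bound by the myeloid transcription factor PU.1, occurs on either strand in 4 of these 8 windows and in 13.6% of the 32851 windows of mouse genes. The 4 are Hpgds, Tbxas1, Ptgs1 and Ltc4s. They rose in BCAS mice, with log2 fold changes of 1.78 to 3.04, but so did Ptges, Ptgds and Alox5, whose windows lack the motif, so a match does not set apart the genes that rose. The matches are shown to place these letters at the RefSeq starts of the genes. The motifs were chosen after the windows had been searched, and a match is a run of letters and no measured binding. Each line gives 30 bases of GRCm38.p6 on the strand of the gene, 5′ to 3′, with the match in capitals. CTTCCTC is the same motif read on the opposite strand.
Hpgds: gcttttaggtgGAGGAAGtggcctctggct
Tbxas1: ccctctgcttcCTTCCTCtttataaagaaa
Ptgs1: aggctggagcaGAGGAAGttggcggtcagc
Ltc4s: gcgccgaggctCTTCCTCtcctgggccagc
The Hpgds site is at chr6:65144761-65144790, with the match 49 to 43 bases before the RefSeq start and inside an exon of the annotation used for counting. The Tbxas1 site, at chr6:38918955-38918984, has its match 20 to 14 bases before the RefSeq start, which lies inside the gene as counted (chr6:38875404-39084585). TATAAA, also searched, occurs in this window of the 8 (13.6% of all windows), after the match in the printed line and without overlap. The Ptgs1 site, at chr2:36230391-36230420, lies 24 to 18 bases before the start and outside the exons. The Ltc4s site, at chr11:50238499-50238528, lies at bases 16 to 22 after the start, within an exon.

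Ptgs2, which fell, holds TGACGT, the core of the cyclic AMP response element through which neuronal activity drives transcription. It is the 1 window of the 8 with this motif, against 7.51% of all windows. The match is on the opposite strand at bases 13 to 18 after the start, in an exon, in the 30 bases at chr1:150100031-150100060.
Ptgs2: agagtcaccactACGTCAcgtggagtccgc
CACGTG, an E-box, overlaps this match at bases 17 to 22 and occurs in no other window of the 8, against 7.15% of all windows. Neither the NF-kB motif searched, GGG and TTCC with 3 bases between them (5.56% of all windows), nor the interferon-response motif, GAAA and GAAA with 2 bases between them (3.44%), occurs in any of the 8 windows, which says only that these letters are absent there.

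The cyclooxygenase genes moved in opposite directions. Ptgs1 (ENSMUSG00000047250.13; mm10 chr2:36230426-36252272, plus strand) encodes COX-1, the constitutive isoform. Its expression was 12.1, 10.4 and 12.4 CPM in sham mice 1 to 3 and 30.6, 32.0 and 57.3 CPM in BCAS mice 1 to 3. BCAS mouse 3 was well above the other BCAS mice, and the lowest BCAS mouse was still above the highest sham mouse. The mean rose 3.43-fold, from 11.6 ± 1.05 to 40.0 ± 15.0 CPM (SD, n = 3; log2 fold change 1.78, standard error 0.23, edgeR adjusted P = 0.000711).

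Ptgs2 (ENSMUSG00000032487.8; chr1:150100031-150108227, plus strand) encodes COX-2, the inducible isoform. Its levels were 29.0, 28.2 and 25.6 CPM in the sham mice and 22.0, 12.9 and 9.59 CPM in BCAS mice 1 to 3. The sham mice were close together, whereas BCAS mouse 1 lay just below them and BCAS mouse 3 was the lowest of the 6. The mean fell from 27.6 ± 1.75 to 14.9 ± 6.44 CPM (SD, n = 3; log2 fold change -0.89, standard error 0.26, edgeR adjusted P = 0.0282). This call did not hold without sham mouse 1 (adjusted P = 0.0901), sham mouse 2 (0.0700), sham mouse 3 (0.0665) or BCAS mouse 2 (0.0545), while the log2 fold change stayed between -1.29 and -0.66 whichever mouse was left out. Without BCAS mouse 1 it was -1.29, with an adjusted P of 0.000549.

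Markers of excitatory neurons moved in the same direction as Ptgs2. 5 of 6 fell. The summed level of the 6 was 6060, 6316 and 6306 CPM in sham mice 1 to 3. In BCAS mice 1 to 3 it was 4339, 4237 and 2822 CPM. The BCAS mice were in the same order for Ptgs2, whereas the sham mice were not. Of 7 activity-induced genes, 3 fell: Arc, a synaptic regulator of AMPA receptors (log2 fold change -1.19, edgeR adjusted P = 0.00406), the neuronal transcription factor Npas4 (-1.05, 0.0178) and the nuclear receptor Nr4a1 (-0.96, 0.00869). The other 4 did not pass: Egr1 (-0.73, edgeR adjusted P = 0.0627), Fosb (-0.30, 0.148), Junb (-0.22, 0.384) and Fos, whose change was positive (0.44, 0.244). The summed level of the 7 was 341, 506 and 482 CPM in sham and 189, 304 and 308 CPM in BCAS mice, so BCAS mouse 1, which had the most Ptgs2 among BCAS mice, had the least of these. The part of either list in the fall of Ptgs2 was not tested.

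The balance of the cyclooxygenase transcripts therefore differed between the groups. On a per-length scale (RPKM, the CPM per kilobase of exon), the ratio of Ptgs1 to Ptgs2 was 0.494, 0.438 and 0.571 in sham mice and 1.64, 2.91 and 7.03 in BCAS mice. Ptgs2 was the more abundant of the pair in each sham mouse and Ptgs1 in each BCAS mouse. The log2 ratio was higher by 2.69 in BCAS mice (exact two-sided permutation test, P = 0.1, adjusted over 3 ratios P = 0.15), and 0.1 is the smallest P that 3 against 3 mice can give. The summed level of both genes was 9.02 RPKM on average in sham and 13.5 RPKM in BCAS mice.

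**Figure D2:**
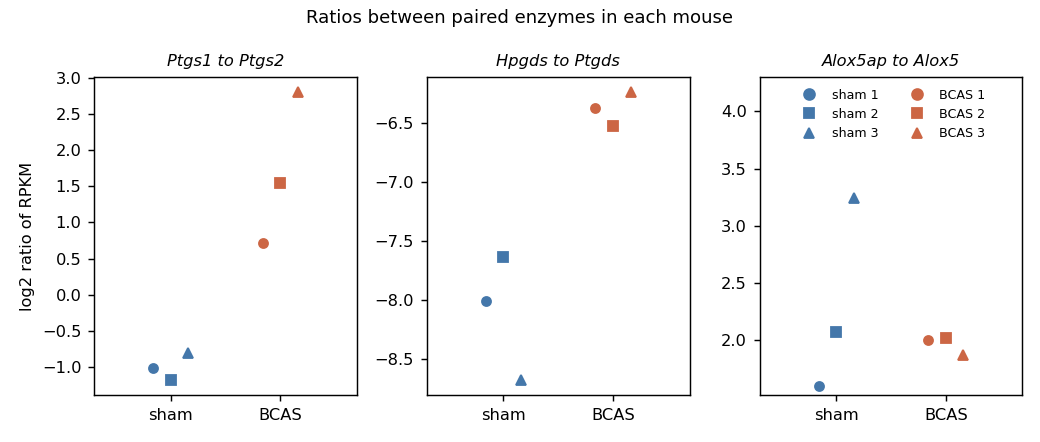
Log2 ratios of RPKM within each mouse for Ptgs1 to Ptgs2, Hpgds to Ptgds and Alox5ap to Alox5, with sham and BCAS mice side by side and a separate axis range in each panel. The groups are apart for the first and second ratio, by 2.69 and 1.73 between their means, and overlap for Alox5ap to Alox5.

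The 4 terminal prostanoid synthases all rose, and 3 of them were DEGs. Hpgds (ENSMUSG00000029919.5; chr6:65117293-65144908, minus strand) encodes the hematopoietic prostaglandin D synthase, a glutathione transferase of microglia and of blood-derived cells such as mast cells. Its levels were 9.06, 8.59 and 8.54 CPM in sham mice and 52.9, 52.3 and 83.5 CPM in BCAS mice. Sham mice were within a narrow range, and the lowest BCAS mouse was several times above it. The rise was 7.21-fold, from 8.73 ± 0.286 to 62.9 ± 17.8 CPM (SD, n = 3; log2 fold change 2.85, standard error 0.19, edgeR adjusted P = 2.26e-05). This was the lowest P of the 9 genes.

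Tbxas1 (ENSMUSG00000029925.13; chr6:38875404-39084585, plus strand) encodes thromboxane A synthase, the cytochrome P450 that makes the vasoconstrictor and platelet activator thromboxane A2. It had 3.28, 4.16 and 2.24 CPM in sham mice and 22.4, 21.2 and 36.3 CPM in BCAS mice, again with BCAS mouse 3 on top. Its fold of 8.25 was the largest of the 9 genes, from 3.23 ± 0.959 to 26.6 ± 8.38 CPM (SD, n = 3; log2 fold change 3.04, standard error 0.28, edgeR adjusted P = 9.85e-05). Platelets also carry this enzyme. Of 6 platelet markers 3 were tested and 1 rose, Itgb3 (an integrin that microglia can also make), and the summed level was 5.03 to 5.80 CPM in sham and 13.3 to 21.1 CPM in BCAS mice, of which Itgb3 made up 2.54 CPM on average in sham and 12.6 CPM in BCAS mice. Gp1ba had 21, 15 and 18 counts in the sham libraries and 30, 20 and 60 in the BCAS libraries, and did not pass (log2 fold change 1.13, edgeR adjusted P = 0.0909). Among those not tested Gp9 had up to 26 counts, Ppbp up to 10 and Gp6 up to 2 in a library. The part of platelet RNA in the rise of Tbxas1 was not tested.

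Ptgds (ENSMUSG00000015090.13; chr2:25466709-25470046, minus strand) encodes the lipocalin-type prostaglandin D synthase, a secreted protein of meninges, choroid plexus and oligodendrocytes, also known as beta-trace. It was by far the most abundant of the 9 transcripts, with 599, 439 and 901 CPM in sham mice and 1124, 1239 and 1612 CPM in BCAS mice. Sham mice spread widely, and sham mouse 3 came closest to the BCAS range without reaching it. The mean went from 646 ± 235 to 1325 ± 255 CPM (SD, n = 3; log2 fold change 1.04, standard error 0.25, edgeR adjusted P = 0.0138). This 2.05-fold rise was just past the DEG threshold. The DEG call was lost without sham mouse 1 (0.98, adjusted P = 0.0668), sham mouse 2 (0.82) or BCAS mouse 3 (0.87), the last pair with an adjusted P under 0.05, and its log2 fold change ran from 0.82 to 1.35 over the 6 omissions.

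The 8 markers of meningeal fibroblasts had summed levels of 146.5, 99.9 and 208.6 CPM in sham mice and 222, 373 and 393 CPM in BCAS mice, which put the 6 mice in the same order as Ptgds. That order is of the sum and not of each marker. 5 of these markers rose, among them the collagens Col1a1 and Col3a1, and 3 did not pass. Among the latter Dcn, the most abundant of the 8 in sham mice, overlapped between the groups. It had 78.6, 44.1 and 99.8 CPM in sham and 73.8, 109.7 and 84.1 CPM in BCAS mice (log2 fold change 0.27, edgeR adjusted P = 0.479). The sum of the choroid plexus markers did not follow the order of Ptgds, since sham mouse 2 had a high summed level and the lowest Ptgds. Of 8 oligodendrocyte markers none passed the test in edgeR (1 at an unadjusted P under 0.05, 1 in DESeq2 and 0 in limma-voom), and their summed levels overlapped at 4538 to 5486 CPM in sham and 5169 to 7734 CPM in BCAS mice. How much of the Ptgds rise goes with meningeal tissue was not tested. With the choroid plexus markers as a covariate, chosen after seeing the data, the log2 fold change of Ptgds was 1.16 (edgeR adjusted P = 0.00412).

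The prostaglandin D synthases thus rose to unequal degrees. The RPKM ratio of Hpgds to Ptgds was 0.00389, 0.00504 and 0.00244 in sham mice and 0.0121, 0.0109 and 0.0133 in BCAS mice. Ptgds stayed the far more abundant transcript in every mouse, while the log2 ratio was higher by 1.73 in BCAS mice (exact two-sided permutation test, P = 0.1, the smallest possible, adjusted P = 0.15).

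Ptges (ENSMUSG00000050737.13; chr2:30889471-30929863, minus strand) encodes the microsomal prostaglandin E synthase, the inducible enzyme that often acts together with COX-2. It had 4.78, 5.51 and 3.88 CPM in sham mice and 10.2, 6.90 and 9.14 CPM in BCAS mice. BCAS mouse 1 and not BCAS mouse 3 was highest, unlike for the other genes that rose. The mean rose from 4.72 ± 0.816 to 8.75 ± 1.69 CPM (SD, n = 3; log2 fold change 0.89, standard error 0.20, edgeR adjusted P = 0.0102). This 1.85-fold rise was below the fold threshold of a DEG, which it passed without sham mouse 2 (1.01) or BCAS mouse 2 (1.03). Within each group, the order of the mice was that of the choroid plexus markers. With these markers as a covariate, an alternative chosen after seeing the data, the log2 fold change was 0.80 (standard error 0.15, edgeR adjusted P = 0.00319).

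**Figure D3:**
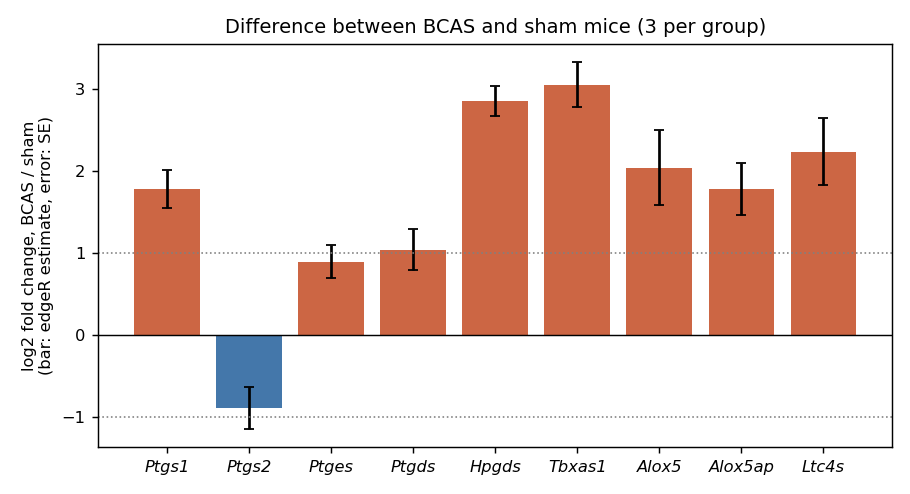
Log2 fold change of BCAS over sham for the 9 genes as estimated by edgeR from 3 mice per group, with the standard error as error bar and dotted lines at -1 and 1. Hpgds and Tbxas1 rise the most, at 2.85 and 3.04, and Ptgs2 is the gene below 0, at -0.89.

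The 3 leukotriene genes were all up-regulated DEGs from low levels. Alox5 (ENSMUSG00000025701.12; chr6:116410077-116461178, minus strand) encodes 5-lipoxygenase, which starts the branch. Sham mice 1 to 3 had 37, 30 and 13 counts of it (1.09, 0.898 and 0.379 CPM), and the BCAS mice had 63, 86 and 154 (1.94, 2.85 and 4.94 CPM). The sham and BCAS mice did not overlap, but both groups spread widely for their level. The rise was 4.11-fold, from 0.790 ± 0.369 to 3.24 ± 1.54 CPM (SD, n = 3; log2 fold change 2.03, standard error 0.46, edgeR adjusted P = 0.0104), with the largest standard error of the 9 genes.

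Alox5ap (ENSMUSG00000060063.9; chr5:149264767-149288153, plus strand) encodes the 5-lipoxygenase activating protein FLAP, which presents arachidonic acid to the enzyme. It had 1.15, 1.32 and 1.31 CPM in sham mice and 2.71, 4.01 and 6.25 CPM in BCAS mice. Sham mice were nearly alike, and BCAS mice fanned out above them. The mean rose 3.43-fold, from 1.26 ± 0.0944 to 4.32 ± 1.79 CPM (SD, n = 3; log2 fold change 1.78, standard error 0.32, edgeR adjusted P = 0.00373). Reads were counted without regard to strand. An antisense gene overlaps 3.81% of the exonic bases of Ptgs1 and 1.58% of those of Tbxas1, and 13.3% of the exonic bases of Alox5ap are shared with the antisense gene Gm19719, which itself had 9 to 31 counts per library, so reads of such pairs cannot be told apart there.

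Ltc4s (ENSMUSG00000020377.15; chr11:50236461-50238616, minus strand) encodes leukotriene C4 synthase, the first enzyme of the cysteinyl leukotrienes. It had 0.944, 2.48 and 1.08 CPM in sham mice and 6.71, 4.61 and 9.84 CPM in BCAS mice. Sham mouse 2 stood above the other sham mice and BCAS mouse 2 below the other BCAS mice, and the groups still did not overlap. The rise was 4.69-fold, from 1.50 ± 0.853 to 7.05 ± 2.63 CPM (SD, n = 3; log2 fold change 2.23, standard error 0.41, edgeR adjusted P = 0.00398). Of its exonic bases 26.4% are shared with the antisense gene Gm26542, which had 4 to 11 counts in sham and 14 to 27 counts in BCAS mice. Sham mouse 2 also had the highest choroid plexus markers among sham mice, and BCAS mouse 2 the lowest among BCAS mice. The remaining mice of each group were in the reverse order. The summed markers were at 1010 and 72.4 CPM in sham mice 1 and 3 and at 6070 and 3298 CPM in BCAS mice 1 and 3. With those markers as a covariate, added after seeing the data, the log2 fold change of Ltc4s was 2.10 (edgeR adjusted P = 0.000874).

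The RPKM ratio of Alox5ap to Alox5 was 3.04, 4.20 and 9.50 in sham mice and 4.02, 4.05 and 3.66 in BCAS mice. The groups overlapped, and the difference of -0.34 in log2 ratio was smaller than the SD of 0.85 among sham mice (exact two-sided permutation test, P = 0.7, adjusted P = 0.7). The summed level of the 3 leukotriene genes was 2.56 RPKM on average in sham and 10.8 RPKM in BCAS mice.

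Leukotriene enzymes are strongly expressed in granulocytes and monocytes, so their markers were examined. Of 6 monocyte markers 4 were tested and 3 rose, Ccr2, Ly6c2 and Plac8, with summed levels of 0.509 to 1.22 CPM in sham and 5.76 to 11.9 CPM in BCAS mice. Of 8 neutrophil markers 2 were tested, and neither passed in edgeR (0 at an unadjusted P under 0.05) or in limma-voom. DESeq2 was run without that filter, and 2 of the 8 passed there in either direction, which need not be the 2 tested in edgeR. The summed level of the 8 was 0.629 to 2.65 CPM in sham and 0.769 to 4.11 CPM in BCAS mice. Among those not tested, S100a8 had 2, 4 and 9 counts in the sham and 5, 36 and 24 in the BCAS libraries. Cxcr2 had 0, 4 and 0 against 2, 20 and 15. Lower counts in BCAS libraries were seen for Ngp (19, 6 and 25 against 4, 0 and 0) and Camp (8, 0 and 13 against 0, 0 and 2). Ly6g had 0 counts in every library. Among 8 mast cell markers the transcription factor Gata2 was the 1 that could be tested and it rose (log2 fold change 0.47, edgeR adjusted P = 0.0444), a call that holds in limma-voom and not in DESeq2. The more specific Cpa3 had at most 9 counts and Tpsb2 at most 3 in any library, and Fcer1a had 0 in every one. The part of monocyte RNA in the rise of the leukotriene genes was not tested.

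Per length, Ptgds led the order of levels in both groups, at 392 ± 142 RPKM in sham and 803 ± 155 RPKM in BCAS mice (SD, n = 3), and Alox5 closed it, at 0.192 ± 0.0898 and 0.790 ± 0.374 RPKM. Between them the order in sham mice was Ptgs2, Ptgs1, Ltc4s, Hpgds, Ptges, Alox5ap and Tbxas1, of which Ltc4s and Hpgds, Hpgds and Ptges, and Tbxas1 and Alox5 overlapped as neighbours. In BCAS mice it was Ptgs1, Hpgds, Ltc4s, Ptgs2, Alox5ap, Tbxas1 and Ptges. Here neighbours were apart at the ends of the order alone, Ptgds from Ptgs1 and Ptges from Alox5, and the 6 pairs between these overlapped. Ptgs2 went from the second to the fifth place and Hpgds from the fifth to the third. Ptgs1 stood at 3.00 RPKM in sham and 10.3 RPKM in BCAS mice, and Hpgds at 1.36 and 9.79 RPKM.

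The genes were then set against microglial RNA in each mouse, as the log2 CPM of the gene minus the mean log2 CPM of the 10 microglial markers. For Hpgds this difference was -1.55, -1.53 and -1.62 in sham mice and -1.42, -1.49 and -1.48 in BCAS mice. Hpgds was higher by 0.10 in BCAS mice relative to the mean of the markers, without overlap of the groups. With the median of the markers in place of their mean the difference was 0.12 and the groups overlapped (exact two-sided permutation test, P = 0.2). Tbxas1 differed by 0.32, and its groups overlapped (exact two-sided permutation test, P = 0.4, adjusted over the 9 genes P = 0.45). In the same exact permutation test Alox5 (-0.73, P = 0.3, adjusted P = 0.386) and Ltc4s (-0.45, P = 0.5, adjusted P = 0.5) overlapped as well. Single mice weighed heavily here. The difference of Tbxas1 was 0.55 without sham mouse 2 and 0.07 without sham mouse 3, that of Alox5 was -1.16 without sham mouse 3 and -0.47 without sham mouse 1, and that of Ltc4s was -0.0071 without sham mouse 2. Ltc4s stood at -0.72 with sham mouse 1 left out and at -0.28 with BCAS mouse 2 left out. These values do not show that the genes and the markers changed alike, since 3 mice per group cannot give a P below 0.1.

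The other 5 genes were lower relative to the microglial markers in each BCAS mouse than in each sham mouse. The difference was -0.98 for Ptgs1, -1.05 for Alox5ap, -1.62 for Ptgds, -1.82 for Ptges and -3.67 for Ptgs2. Each of these, and that of Hpgds, had P = 0.1 in the exact two-sided permutation test (adjusted P = 0.15), the smallest this design allows. Ptgs1 was at -1.13, -1.25 and -1.09 in sham mice and at -2.20, -2.20 and -2.03 in BCAS mice. Its RNA rose in the tissue, but by less than the mean of the 10 markers, of which P2ry12 (log2 fold change 1.54) rose less than Ptgs1 and Sall1 (1.87) about as much.

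**Figure D4:**
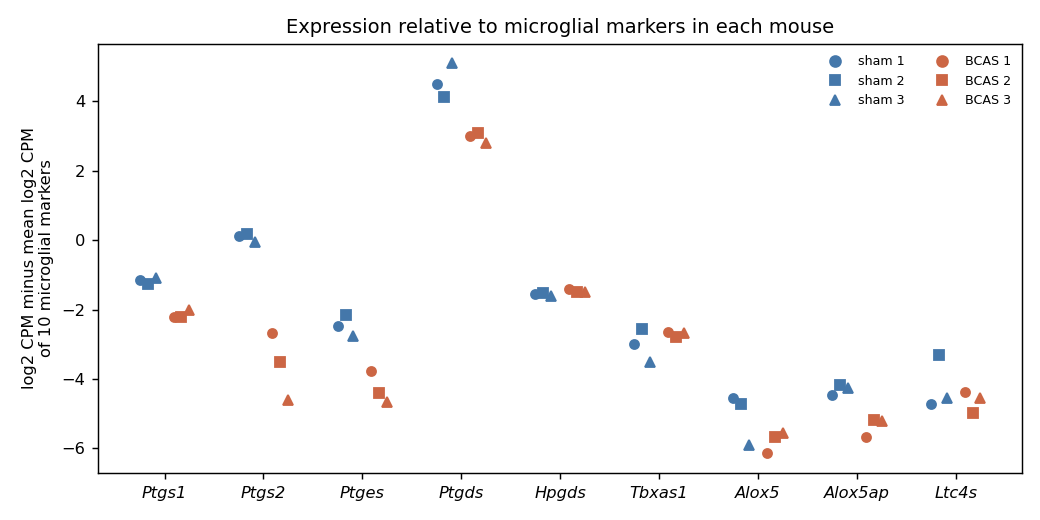
Log2 CPM of each of the 9 genes minus the mean log2 CPM of 10 microglial markers, with 1 symbol per mouse. Hpgds is nearly level between sham and BCAS mice, Tbxas1, Alox5 and Ltc4s overlap, and the other 5 genes are lower in BCAS mice, with a difference of -3.67 for Ptgs2.

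The nearest expression profiles were sought among 15631 tested genes with a mean of at least 1 CPM, by the Euclidean distance between log2 CPM centred on each gene's mean over the 6 libraries. Genes with a like fold change are close by this measure, and closeness is given as a description. Nearest to Hpgds were the microglial fractalkine receptor gene Cx3cr1 (distance 0.163), Nckap1l, a hematopoietic regulator of actin (0.167), and H2-Q4, a class I histocompatibility gene (0.207). Nearest to Tbxas1 were Sp140 (0.259), H2-Q5 (0.377) and Nfam1 (0.411). Those of Ptgs1 were Trim25, a ubiquitin ligase of antiviral sensing (0.135), Rab3il1 (0.168) and Gmfg (0.211).

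Ptgs2 had as neighbours the kinase gene Stk32b (0.230), the ephrin receptor gene Epha4 (0.261) and Ccbe1 (0.277), which all had lower levels in BCAS mice. The neighbours of Ptgds were Cyp1b1 (0.267), Slc13a3 (0.285) and Aldh1a2 (0.294), the last an enzyme of retinoic acid synthesis and 1 of the meningeal fibroblast markers. Ptges lay nearest to the glutamine transporter gene Slc38a3 (0.127), Klhdc7a (0.159) and Lrch3 (0.187). The leukotriene genes had as neighbours Slc25a45 (0.278), Serpinf1 (0.316) and the collagen gene Col15a1 (0.332) for Alox5ap, Nlrc3 (0.377), Gm6545 (0.451) and Frrs1 (0.534) for Alox5, and Prr11 (0.589), Ighm (0.591) and Plscr2 (0.596) for Ltc4s.

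Around the 9 genes, 71 further genes of eicosanoid metabolism were listed by function, of which 63 were tested. 19 rose and 5 fell, and 39 did not pass, against 18.0% higher and 13.2% lower among all tested genes (31.3% in all). The DEGs among them were 10 up-regulated genes and 1 down-regulated gene, and the median log2 fold change of the 63 was 0.34. Of 19 tested genes listed under the release of arachidonic acid or its precursors, 5 rose and 2 fell, a split not set apart here from that of all tested genes. The 5 include Pla2g7 (log2 fold change 0.73, edgeR adjusted P = 0.000128), a phospholipase A2 gene by its symbol, for which release of arachidonic acid was not shown. The cytosolic phospholipase gene Pla2g4a, whose product frees arachidonic acid for both branches, rose from 4.49 ± 0.228 to 10.4 ± 2.59 CPM (SD, n = 3; log2 fold change 1.21, edgeR adjusted P = 0.00204). The lysosomal phospholipase gene Pla2g15 rose from 27.5 ± 3.17 to 65.5 ± 9.16 CPM (log2 fold change 1.25, edgeR adjusted P = 0.000141). Those that fell were Faah, which degrades anandamide (log2 fold change -0.69, edgeR adjusted P = 0.00373), and Dagla, which makes 2-arachidonoylglycerol (-0.47, 0.0211). Daglb, whose product makes the same lipid, rose (0.65, edgeR adjusted P = 0.00669).

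Of 7 tested genes for other prostanoid synthases, 1 rose and 2 fell, each by less than the fold threshold of a DEG. Among them the cytosolic prostaglandin E synthase gene Ptges3, also a co-chaperone of HSP90, had a log2 fold change of -0.27 (edgeR adjusted P = 0.0195), opposite in sign to that of Ptges. Of 5 tested genes for other lipoxygenases, Alox12b, known from the skin barrier, was the 1 that passed, falling from 6.69 ± 0.723 to 2.41 ± 0.487 CPM (SD, n = 3; log2 fold change -1.48, edgeR adjusted P = 0.00102). Alox15 had 0 counts in 4 libraries and 7 and 15 in BCAS mice 2 and 3, and was not tested. Of 6 tested genes for leukotriene conversion, 2 rose: Mgst1, a microsomal glutathione transferase (log2 fold change 1.27, edgeR adjusted P = 0.000321), and Ggt5, which turns leukotriene C4 into leukotriene D4 (1.02, 0.00762).

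Of 8 tested genes for catabolism, 4 rose and 4 did not pass. Hpgd, whose 15-hydroxyprostaglandin dehydrogenase inactivates prostaglandins, had 7.43 ± 0.265 CPM in sham and 31.3 ± 7.41 CPM in BCAS mice (SD, n = 3; log2 fold change 2.07, standard error 0.17, edgeR adjusted P = 5.74e-05). Cyp4f18, a cytochrome P450 of leukocytes that hydroxylates leukotriene B4, had 3, 3 and 7 counts in the sham libraries and 27, 64 and 80 in the BCAS libraries (log2 fold change 3.81, edgeR adjusted P = 0.00157). The other genes that rose were Zadh2 (0.37, edgeR adjusted P = 0.0258) and Cyp4f14 (0.87, 0.00237), while the prostaglandin reductase genes Ptgr1 (0.24, 0.473) and Ptgr2 (0.31, 0.115) were among those that did not pass. Of 3 transporter genes, 1 rose, the prostaglandin exporter gene Abcc4 (0.93, edgeR adjusted P = 0.00193).

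Of 17 receptor genes 15 were tested, 6 rose and 9 did not pass. Ptger4, the EP4 receptor of prostaglandin E2, rose from 2.01 ± 0.255 to 7.51 ± 2.76 CPM (SD, n = 3; log2 fold change 1.90, edgeR adjusted P = 0.00154). Cysltr1, a receptor of the leukotrienes made from the product of LTC4S, rose from 1.10 ± 0.435 to 3.87 ± 1.59 CPM (1.81, edgeR adjusted P = 0.00822). Cmklr1, the chemerin receptor, which is also listed as a receptor of resolvin E1, rose from 2.03 ± 0.475 to 21.9 ± 6.10 CPM (3.43, edgeR adjusted P = 3.50e-05). The prostacyclin receptor gene Ptgir (1.85, edgeR adjusted P = 0.0292), the prostaglandin F receptor gene Ptgfr (0.98, 0.0452) and Gpr17, a receptor gene of oligodendrocyte precursors (0.53, 0.00686), rose as well. Ptgir was low, with 3 to 8 counts in sham and 11 to 26 counts in BCAS mice.

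The receptors of the products of Tbxas1 and Hpgds did not pass. Tbxa2r, the thromboxane receptor, had 1.83 ± 0.552 CPM in sham and 2.31 ± 0.764 CPM in BCAS mice (SD, n = 3; log2 fold change 0.34, edgeR adjusted P = 0.491), and Ptgdr, the DP1 receptor of prostaglandin D2, had a log2 fold change of 0.87 (edgeR adjusted P = 0.0597). The DP2 receptor gene Ptgdr2 was not tested, with 0 to 8 counts per library. The EP receptor genes Ptger1 (0.94, edgeR adjusted P = 0.175), Ptger2 (-0.33, 0.763) and Ptger3 (0.08, 0.895) did not pass either. Among leukotriene receptors the same holds for Ltb4r1 (-0.28, 0.765), Ltb4r2 (1.06, 0.155), Cysltr2 (-0.07, 0.920) and Oxgr1 (-0.35, 0.675). Ptger2, Ltb4r1, Ltb4r2 and Oxgr1 had fewer than 30 counts in every library, and the standard errors of their log2 fold changes were 0.52 to 0.72.

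**Figure D5:**
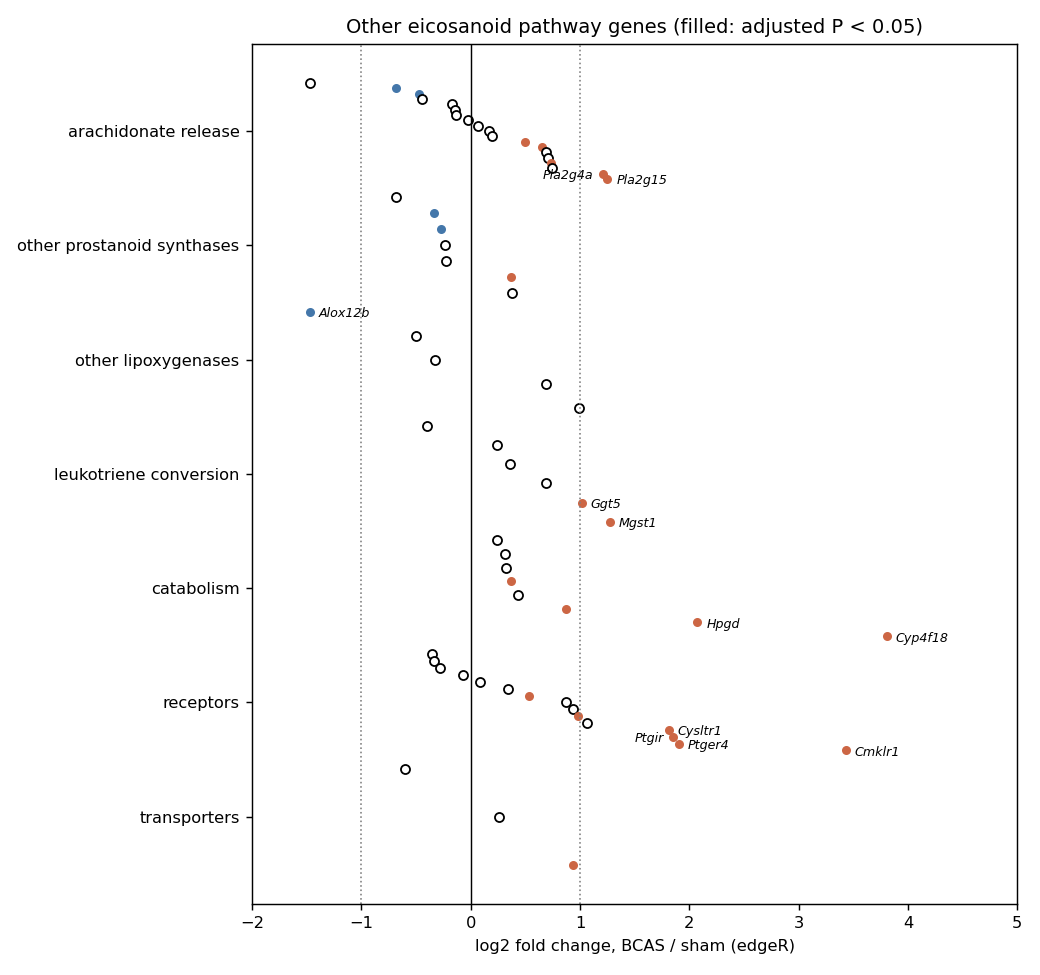
Log2 fold change of BCAS over sham for the 63 tested eicosanoid genes beyond the 9, 1 point per gene, grouped by role. Filled points have an edgeR adjusted P under 0.05 (orange higher, blue lower in BCAS mice), open points do not, dotted lines mark -1 and 1, and names are given to the 11 DEGs, of which Cyp4f18 lies highest at 3.81 and Alox12b lowest at -1.48.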

How the data were processed

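The authors trimmed the paired-end reads with Trim Galore, aligned them to mm10 with HISAT2 and deposited raw counts per gene from featureCounts (1.6.3 in the submitters' processing notes, 2.0.3 with GENCODE vM20 in the file headers). Per the headers, mates were counted singly, strand was ignored, and multi-mapping reads were left out. Of 54752 genes 29 had no symbol. From these counts, 18617 genes passed edgeR's filterByExpr, were normalized by TMM (factors 0.964 to 1.05) and were tested with edgeR 4.0.16 (quasi-likelihood) in R 4.3.3, in place of the DESeq2 of the methods, which was an alternative (1.42.0) beside limma-voom (limma 3.58.1). P values were adjusted by Benjamini-Hochberg over all tested genes. RPKM used exonic lengths. Log2 CPM used a prior count of 2, and ratios 1 added count. Steps were tested on simulated data.

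The 9 genes and the lists were chosen with earlier results of these data known. Named genes were the 9, the DEGs and tested receptors of the eicosanoid list, up to 3 markers per list and the 3 nearest profiles; the other genes named (such as Faah, Daglb, Ptgr1, Ptges3, Abcc4 and Alox15) were chosen after their values were seen. Groups came from the labels. Detection limits cover counting error only. No replicate pair agreed within sampling noise. The labels do not say whether mice shared a batch.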

Additional observations from a re-analysis of the deposited data

How the results depend on the processing

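Under DESeq2, limma-voom, RLE, library totals, both other filters and halved counts, the 9 genes kept their directions, 7 stayed DEGs and 9 had an adjusted P under 0.05. Without a fold threshold the DEGs were 5819 of all tested genes, 9 of the 9 and 24 of the other eicosanoid genes. With glmTreat, which tests whether a change exceeds 1 on the log2 scale, they were 818 (against 1762), 3 (Ptgs1, Hpgds and Tbxas1, with Ltc4s at an adjusted P of 0.0509) and 4 (against 11). Leaving out 1 mouse at a time gave 1306 to 1976, 6 to 8 and 8 to 13 DEGs, the fewest of all tested genes without BCAS mouse 3, and 7 to 9 of the 9 genes with an adjusted P under 0.05. Ptgs2 then ran from -1.29 to -0.66, past the threshold without BCAS mouse 1 or 3 alone, with adjusted P values from 0.000549 to 0.0901. Ptgds ran from 0.82 to 1.35 and was no DEG without sham mouse 1 (0.98, adjusted P = 0.0668), sham mouse 2 (0.82) or BCAS mouse 3 (0.87). The log2 ratio of Alox5ap to Alox5 ran from -0.69 to 0.13 and changed sign without sham mouse 3 (0.13). The cause of these shifts was not tested. Alox5, Alox5ap and Ltc4s rest on 13 to 83 counts per sham library, which limits their precision.

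Mice with the same replicate number did not deviate together, so the numbers give no pairing (correlations of same-numbered deviations of 0.036, -0.314 and -0.158). With the replicate number as a block there were 1595 DEGs in all, 7 among the 9 genes and 10 among the other eicosanoid genes. All 9 genes had an adjusted P under 0.05 with the block, as without it.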
